A study of Homo sapiens with 6 samples.

Results

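The comparison described here is that of SS+NAC with SS, that is, KHM-5M cells given sodium selenite (SS) together with N-acetylcysteine (NAC) against KHM-5M cells given SS alone. It was chosen by treatment label and takes 4 of the 6 RNA-seq libraries of the series, 2 of each group, while the 2 libraries of PBS-treated control cells are given beside them. KHM-5M is an established cell line from an anaplastic thyroid cancer, and all 3 groups were grown in RPMI-1640 medium with fetal bovine serum. No treatment times are given in the labels of the sequenced cells. The sample titles of control and SS carry a number without a unit, which was not read as a dose. No group received NAC alone, so what NAC does without SS cannot be told apart from what it does in its presence. The comparison addresses how far the transcriptome under selenite differs when a thiol is supplied with it.

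Selenite reacts with thiols such as glutathione, and this cycle consumes thiols and NADPH and produces superoxide and hydrogen peroxide. NAC is a cysteine derivative that supplies thiols and cysteine and is widely used as a scavenger of reactive oxygen species (ROS). Cells have a pair of well-known transcriptional programs around these compounds. NRF2 is released from its inhibitor KEAP1 when cysteines of KEAP1 are modified by oxidants or electrophiles, and it then induces genes of glutathione synthesis, the thioredoxin system and iron handling through the antioxidant response element. ATF4 is translated when eIF2alpha is phosphorylated, as in amino acid shortage or endoplasmic reticulum stress, and induces amino acid transporters, amino acid synthesis and genes that shift the cysteine and glutathione pools. The cystine carrier SLC7A11 is a target of both.

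The libraries held 17645545 and 22016655 expected counts in control, 23493415 and 23810056 in SS, and 23682740 and 22617180 in SS+NAC, and between 16114 and 16503 genes had a count. After a filter on low counts 14005 genes were tested. The thyroid transcription factor gene PAX8 had 104 to 134 TPM (counts per length, scaled to a common total), and the keratin genes KRT8 and KRT18 and the vimentin gene VIM were abundant. Other epithelial markers were lower, with 47.15 to 68.09 TPM of KRT7, 3.85 to 6.07 of EPCAM, 0.96 to 2.19 of KRT19 and 0.14 to 0.29 of CDH1. The thyroid factor gene FOXE1 had 0.55 to 1.59 TPM. The defining markers of differentiated thyroid cells were near 0, with at most 0.30 TPM of TG, the thyroglobulin gene, at most 0.69 TPM of SLC5A5, the iodide carrier gene, and at most 0.20 TPM of NKX2-1. Of the markers of fibroblasts, endothelium and blood cells, CD3E and CDH5 did not exceed 0.08 TPM and DCN, PDGFRA, PECAM1 and VWF did not exceed 0.44 TPM in any library, while PTPRC had 0.53 to 0.77, LYZ 0.80 to 1.91, CD14 1.15 to 2.14, PDGFRB 3.42 to 5.74 and LUM 4.17 to 8.80 TPM. Replicates of a group differed by more than sampling noise, with a chi-square per degree of freedom of 7.35 for SS, 12.2 for SS+NAC and 3.1 for control.

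The SS libraries differed from the others by transcript length, which every count of genes below has to be read against. The deviation of log2 CPM (counts scaled to a common library total) from the mean over libraries was summarised for 8 equal groups of genes ordered by effective length. In the shortest genes, with a median length of 1021 bases, the median deviation was 0.23 and 0.36 in the SS libraries, compared with -0.12 and -0.18 in SS+NAC and -0.15 and -0.13 in control. In the longest, with a median length of 7605 bases, it was -0.27 and -0.33 in SS, 0.13 and 0.16 in SS+NAC and 0.17 and 0.15 in control. Both SS libraries thus stood apart from the other 4 at both ends of the range. Across genes, which are not independent replicates, the log2 fold change of SS+NAC over SS had a Spearman correlation of 0.64 with effective length, and of -0.02 once each library's trend with length had been fitted and taken out as an offset. Fold changes below come from the fit with this length offset unless the fit without it is named, so they compare a gene with others of similar length. Of the 1751 shortest genes, 26 were called higher and 1185 lower without the offset, and 67 and 45 with it. What produced the trend was not tested.

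**Figure D1:**
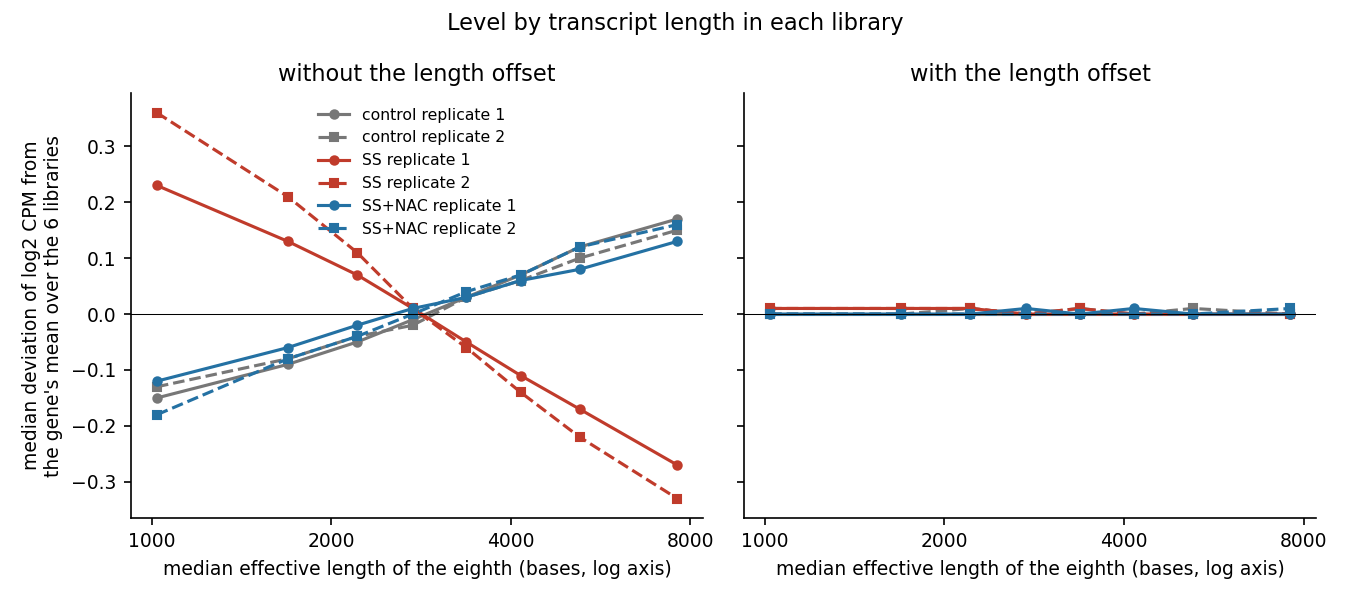
Median deviation of log2 CPM from each gene's mean over the 6 libraries (vertical axis) in 8 equal groups of genes, placed at their median effective length in bases (horizontal axis, log scale), without the length offset on the left and with it on the right, 1 line per library. On the left the SS libraries lie above 0 among the shortest genes and below 0 among the longest, and the SS+NAC and control libraries run the other way, while on the right all libraries lie near 0.

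A smaller trend with base composition remained. The Spearman correlation of the log2 fold change with the GC content of the transcript was -0.34 without the offset and -0.27 with it. With the offset, the median deviation in the lowest-GC eighth was -0.10 and -0.12 in SS and -0.03 and 0.14 in SS+NAC. In the highest-GC eighth it was 0.03 and 0.09 in SS and 0.04 and -0.10 in SS+NAC. SS+NAC replicate 2 thus differed more from SS than SS+NAC replicate 1 did. Of the eighth of genes with the lowest GC content 350 were called higher and 69 lower in SS+NAC, and with an offset for length and GC content together the counts were 205 and 226. Values under both offsets are given below for several AT-rich genes, and none of the called genes given with a fold change lost its call under the length and GC offset.

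With the length offset, 2019 of 14005 genes (14.4%) were called at an adjusted p of 0.05 or less (quasi-likelihood test of edgeR): 1033 (7.38%) were higher and 986 (7.04%) were lower in SS+NAC. Without the offset 5985 genes (42.7%) were called, 3240 (23.1%) higher and 2745 (19.6%) lower. Of the called genes, 1502 were called in the same direction in both fits and 15 in opposite directions. Most differences were small, with a median size of 0.44 on the log2 scale over the called genes, and 138 genes rose and 39 fell by 2-fold or more. The count depended on single libraries, being 343 without SS replicate 2, 846 without SS replicate 1 and 3811 without SS+NAC replicate 1. A set of 261 genes (1.86%), 156 higher (1.11%) and 105 lower (0.75%), was called in the same direction in all of 12 fits, namely those with and without the length offset, with the length and GC offset, with a replicate block, with the 4 libraries alone, with DESeq2, and without each library in turn. A gene said below to be called in every fit belongs to this set.

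**Figure D2:**
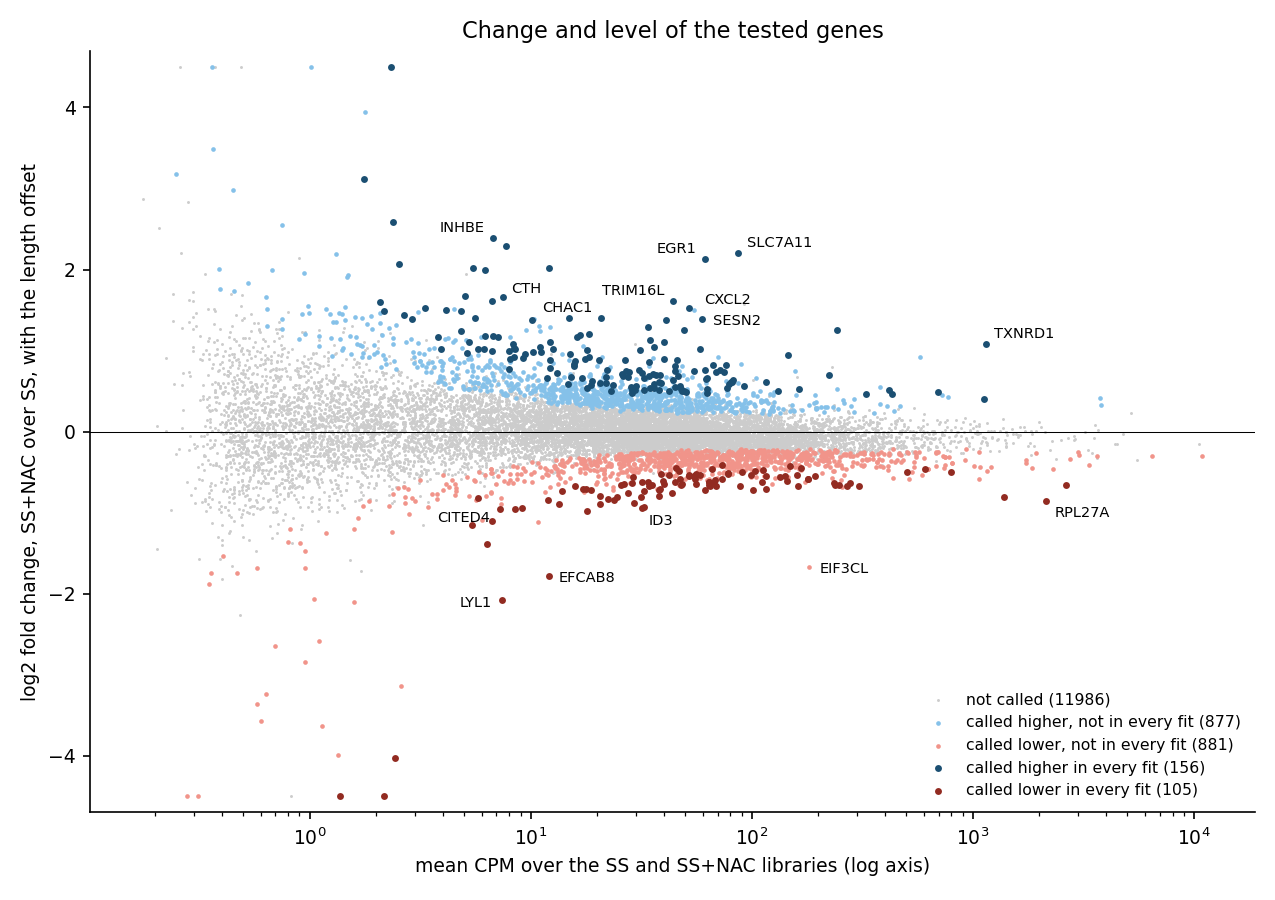
Log2 fold change of SS+NAC over SS with the length offset (vertical axis) against mean CPM over the SS and SS+NAC libraries (horizontal axis, log scale) for the 14005 genes tested, colored by whether a gene was called and whether it was called in every fit. Of the genes called in every fit, 156 lie above 0 and 105 below, and 11 genes beyond the vertical range are drawn at its edge.

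The 15 largest rises and falls are among called genes with at least 10 CPM in SS or SS+NAC and groups that did not overlap. Among the 15 largest rises were the cystine carrier gene SLC7A11, which is in the NRF2 list, and CTH, DDIT4, CHAC1, SESN2 and ADM2, which are in the list of ATF4 and CHOP targets. SLC7A11 encodes the cystine carrier subunit of system xc- and lies on the minus strand of chromosome 4 of GRCh38 from 138164097 to 138242349. It had 32.8 and 36 CPM in control, 22.8 and 23.2 in SS, and 133 and 168 in SS+NAC. Both SS+NAC libraries thus lay far above all the others, and the log2 fold change was 2.20 (SE 0.11, adjusted p = 1.49e-05), 2.71 without the offset and 2.02 with the length and GC offset. INHBE, which encodes an activin subunit induced in stressed liver cells, had 2.11 and 2.80 CPM in control, 2.53 and 1.96 in SS, and 10.5 and 12.2 in SS+NAC (log2 fold change 2.39, SE 0.18). EGR1, an immediate early transcription factor downstream of ERK, was ordered control, SS, SS+NAC. It had 10.3 and 9.41 CPM in control, 25.6 and 18.5 in SS, and 97.6 and 104 in SS+NAC (log2 fold change 2.13, SE 0.12), with no overlap between any of the groups. In bulk RNA a higher level in every cell and a larger share of cells with a high level cannot be told apart.

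CTH encodes cystathionine gamma-lyase, which releases cysteine from cystathionine, and lies on chromosome 1 from 70411218 to 70439851. It had 3.45 to 3.79 CPM in the 4 control and SS libraries, and 10.8 and 11.7 in SS+NAC (log2 fold change 1.66, SE 0.13). The mTORC1 inhibitor gene DDIT4 had 14.1 and 14.5 CPM in control, 35.6 and 24.3 in SS, and 65.2 and 83.7 in SS+NAC (1.53, SE 0.17). CHAC1, a glutathione-degrading enzyme, had 12.8 and 13.2 CPM in SS and 28.4 and 28.8 in SS+NAC (1.40, SE 0.09). SESN2, a leucine sensor that restrains mTORC1, had 30.9 and 31.2 CPM in SS and 91.3 and 85.2 in SS+NAC (1.39, SE 0.08). ADM2, a peptide hormone gene, had 21 and 20.3 CPM in SS and 63.3 and 58.4 in SS+NAC (1.37, SE 0.08). In each of CTH, CHAC1, SESN2 and ADM2 both SS+NAC libraries lay above all 4 SS and control libraries, which were close to each other for CTH, SESN2 and ADM2. TRIM16L had 25.1 and 22.5 CPM in SS and 63.8 and 64.4 in SS+NAC (1.61, SE 0.08), and its close relative TRIM16, with which reads can be shared, had 31.2 and 28.9 in SS and 61.2 and 75.4 in SS+NAC (1.26, SE 0.10). The chemokine gene CXCL2 was the only one of the 15 largest rises besides ZSCAN31 that was not called in every fit, and both were lost without SS replicate 2, with an adjusted p of 0.0899 for CXCL2 and 0.0785 for ZSCAN31. Of the other members of the 15, RIC3 (log2 fold change 1.40) and NBPF10 (1.38) were low in SS and not in control. NBPF10 belongs to a family of near-identical copies, and LOC107984841 (2.29) and LOC101060341 (2.01) are uncharacterised loci with counts that were not whole, so reads were divided between them and other genes and their values are uncertain. All counts were whole for only 3 of the 15 rises (EGR1, DDIT4 and SESN2) and 6 of the 15 falls. Among the others, counts were not whole in any library for SLC7A11, TRIM16L, CXCL2, LYL1, EFCAB8 and RPL27A, among more. They were not whole in 83.3% of the libraries for INHBE, CTH and ADM2, among more. The number of reads divided is not known.

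Within this selection of 15 in each direction, the largest falls were smaller in size than the largest rises. LYL1, a basic helix-loop-helix transcription factor of blood cells on chromosome 19 from 13099033 to 13103161, had 2.95 and 3.03 CPM in control, 9.11 and 14.9 in SS, and 3.27 and 2.53 in SS+NAC. The log2 fold change was -2.08 (SE 0.24, adjusted p = 0.00105). EFCAB8 had 5.72 and 5.38 CPM in control, 17.3 in both SS libraries, and 7.12 and 6.44 in SS+NAC (-1.78, SE 0.11). PLCG2, a phospholipase C gene, had 15.1 and 15.9 CPM in control, 20.6 and 21.7 in SS, and 15.2 and 14.7 in SS+NAC (-0.98, SE 0.10, and -0.50 without the offset). ITGAE, the integrin alphaE gene, had 9.73 and 10.1 CPM in control, 16.2 and 17 in SS, and 10.2 and 10.6 in SS+NAC (-0.90, SE 0.10). In these 4 genes SS stood above the other groups, whose levels were close. VGF, a secreted neuropeptide precursor, had 20.1 and 20.9 CPM in control, 30.9 and 31.1 in SS, and 18.8 and 14.9 in SS+NAC (-0.84, SE 0.11).

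ID3 showed another order. This inhibitor of basic helix-loop-helix transcription factors, a target of BMP signalling, lies on the minus strand of chromosome 1 from 23557918 to 23559794. It had 34.0 and 41.3 CPM in control, 40.2 and 50.7 in SS, and 19.8 and 16.9 in SS+NAC (log2 fold change -0.94, SE 0.12), so that SS+NAC lay below both other groups. CITED4, a coactivator of CBP and p300, had 5.50 and 6.06 CPM in control, 9.68 and 11.1 in SS, and 4.47 and 3.90 in SS+NAC (-0.96, SE 0.14). EIF3CL (log2 fold change -1.67) is a near-identical copy of EIF3C and had 17.5 and 64.8 CPM in its control libraries, so its value is uncertain. Its call was lost without SS replicate 2 (adjusted p = 0.158) and with DESeq2 (0.109). PPAN-P2RY11 (-1.11) is a read-through gene, and its call was lost without SS replicate 1 (adjusted p = 0.0636) or 2 (0.0681). The other 6 of the 15 were NUDCD2, PITPNC1, MCMDC2, RPL27A, TENT5B and LOC101928589, with log2 fold changes between -0.95 and -0.85. Without the offset NUDCD2 had -0.46, PITPNC1 -0.51, RPL27A -0.58 and MCMDC2 -0.61. MCMDC2, with an AT-rich transcript, had -0.89, and -1.09 with the length and GC offset.

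**Figure D3:**
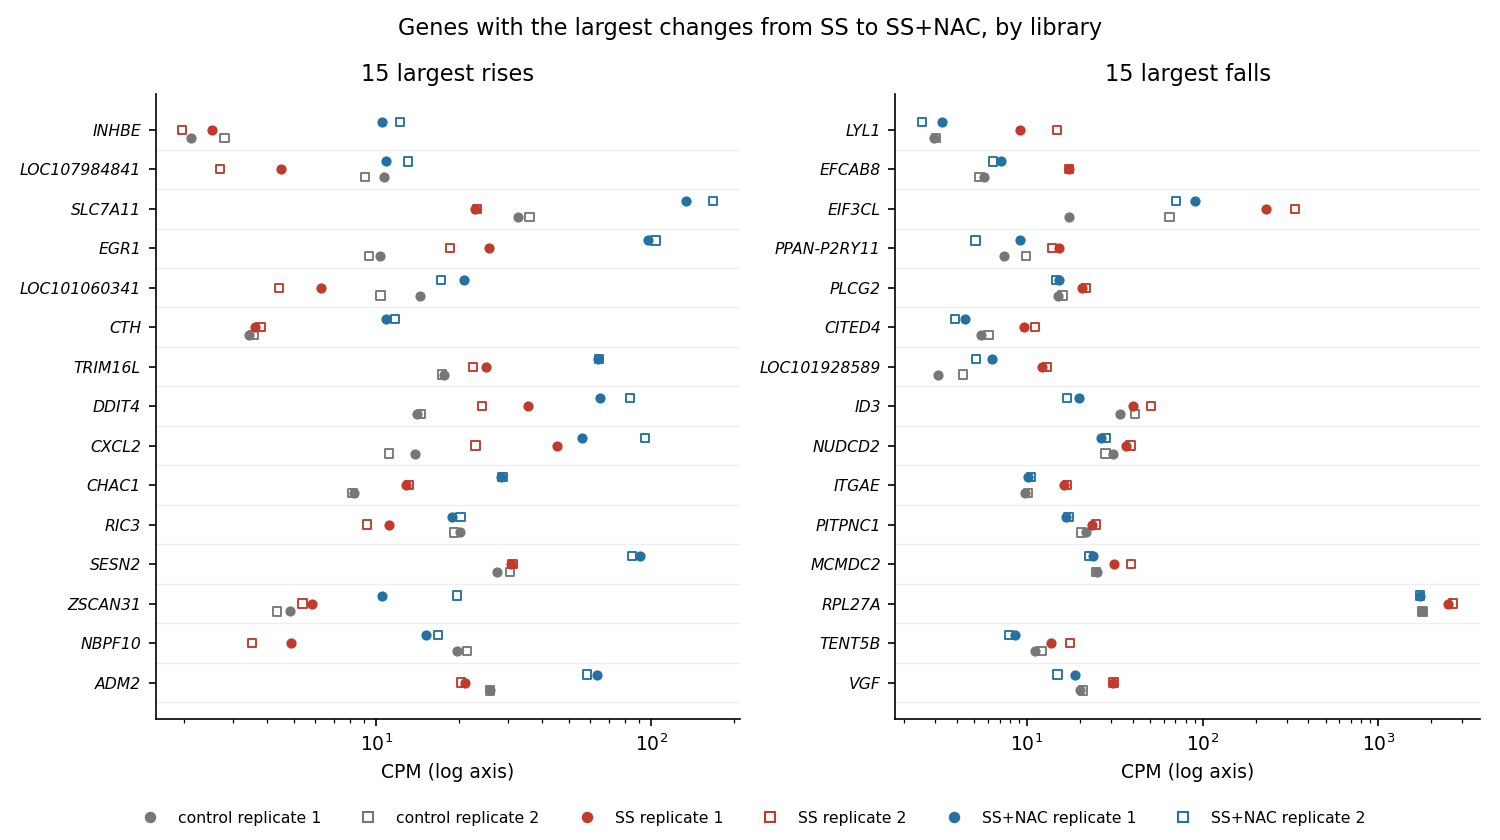
CPM without an offset (horizontal axis, log scale) of the 15 genes with the largest rise (left) and the 15 with the largest fall (right), 1 point per library, with circles for replicate 1 and squares for replicate 2. The SS+NAC points of SLC7A11, INHBE and EGR1 lie above those of both other groups, and the SS points of LYL1 and EFCAB8 lie above those of SS+NAC and control.

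Gene lists of 39 pathways were described by the number of called members and the median log2 fold change, beside the median of -0.01 over all genes tested. The lists and their members were chosen with earlier results of these data known. An excess over the share of all genes may therefore be partly built in, and the counts serve as description only. Counts of a list without the offset are to be read against 23.1% of all genes called higher and 19.6% lower in that fit. The lists with the most members called higher were NRF2 targets with 14 of 29 and ATF4 and CHOP targets with 24 of 40, each with none called lower, against 7.38% of all genes called higher. Lists that went the other way were the subunits of complexes II to V with 11 of 40 members called lower, G1/S genes with 9 of 38 and glycolysis with 8 of 23, each with none called higher, against 7.04% of all genes called lower. Without SS replicate 2, when 192 genes in all were called higher and 151 lower, these counts were 7 for NRF2 targets, 10 for ATF4 and CHOP targets, 3 for complexes II to V, 0 for G1/S genes and 1 for glycolysis. Without SS+NAC replicate 1, when 1797 genes were called higher and 2014 lower, they were 16, 24, 16, 23 and 15.

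**Figure D4:**
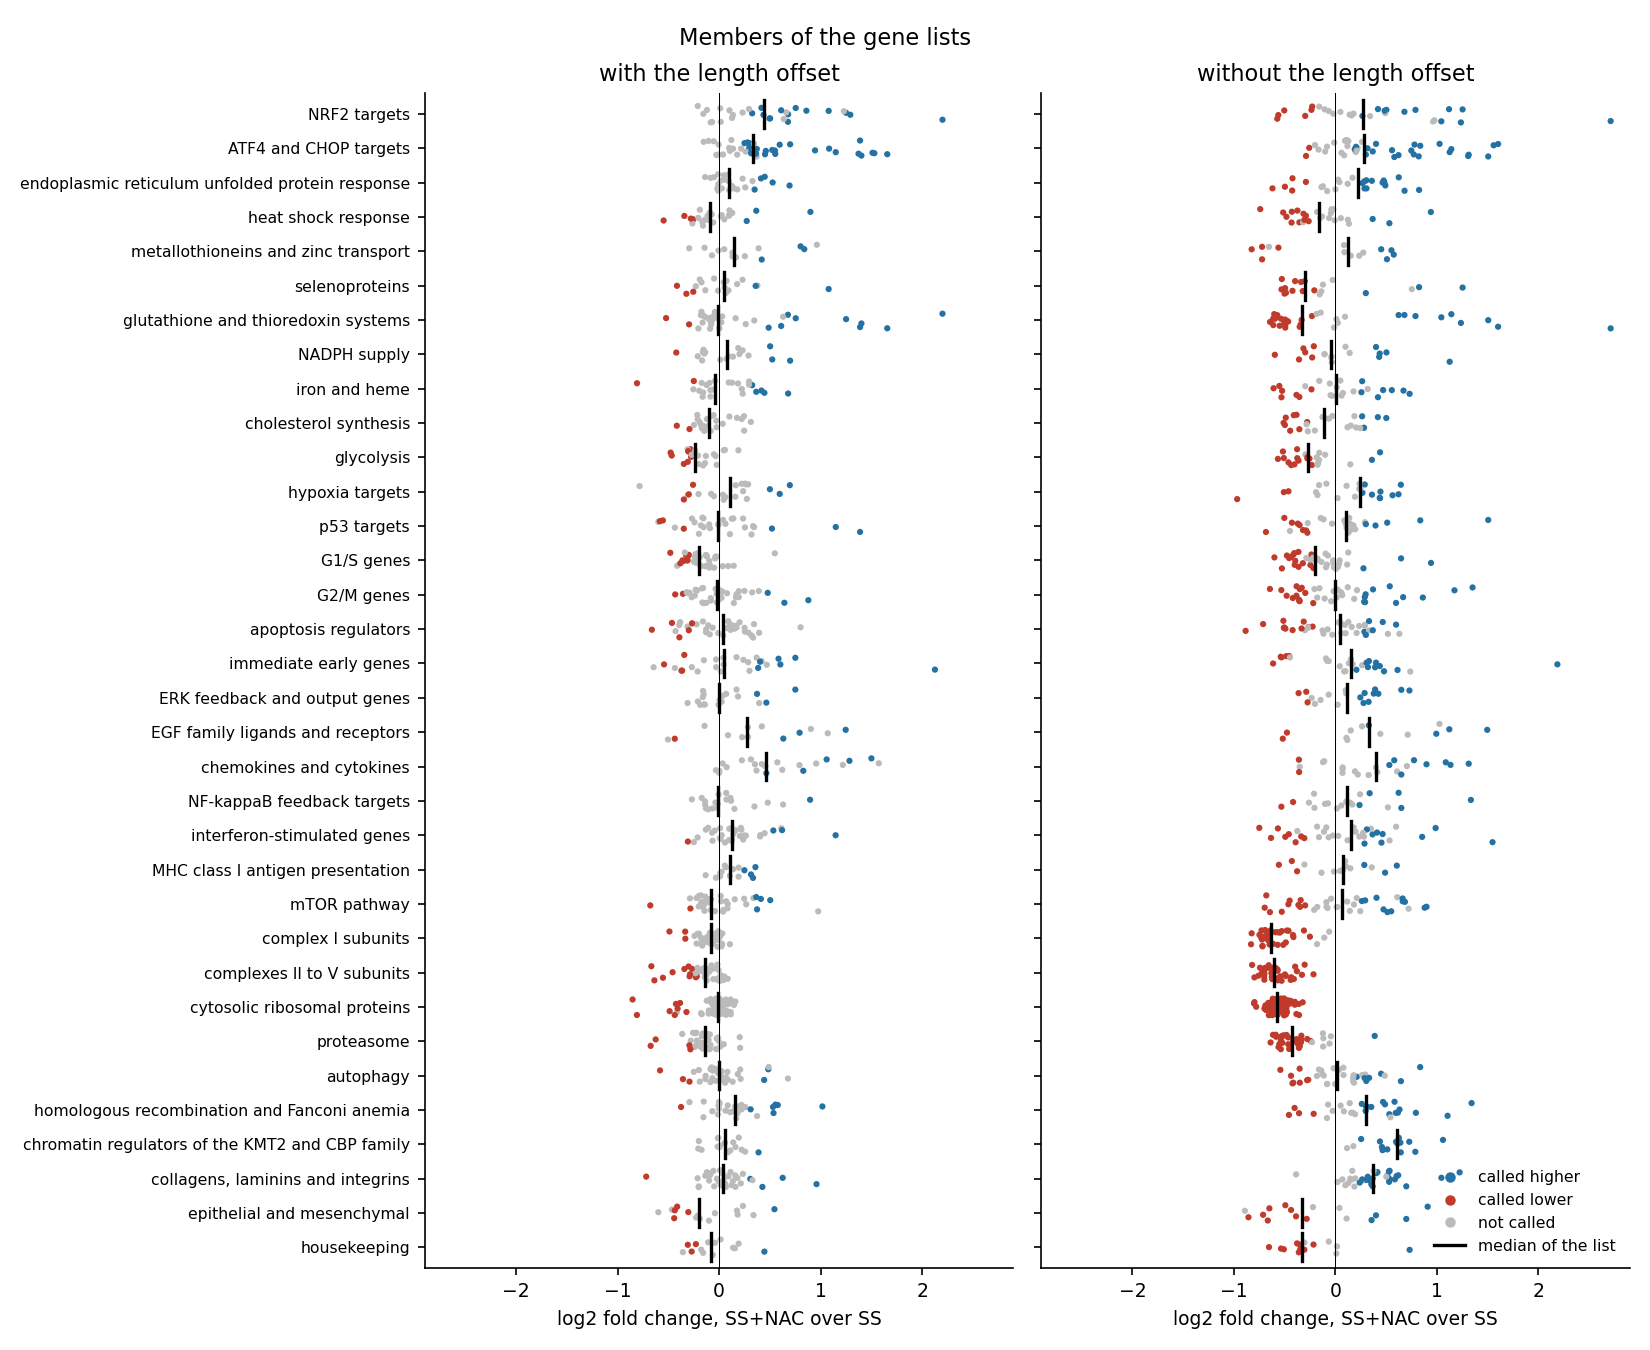
Log2 fold change of SS+NAC over SS (horizontal axis) of the tested members of gene lists (vertical axis), with the length offset on the left and without it on the right, 1 point per gene colored by its call and a bar at the median of each list. With the offset the medians of NRF2 targets (0.44) and of ATF4 and CHOP targets (0.33) lie above 0 and those of glycolysis (-0.24) and G1/S genes (-0.20) below, and the medians of the respiratory chain and ribosomal lists lie far below 0 only without it.

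Of 29 tested NRF2 targets, 14 rose and none fell, with a median log2 fold change of 0.44. Members called in every fit were SLC7A11, OSGIN1, SRXN1, TXNRD1, GCLM, HMOX1 and GSR. SRXN1 encodes sulfiredoxin, which restores overoxidised peroxiredoxins. It had 136 and 139.6 CPM in control, 147 and 143 in SS, and 334 and 349 in SS+NAC (log2 fold change 1.25, SE 0.07, adjusted p = 1.49e-05). TXNRD1 encodes the cytosolic thioredoxin reductase, a selenoprotein that reduces thioredoxin and also selenite. It had 711 and 702 CPM in control, 669 and 681 in SS, and 1553 and 1666 in SS+NAC (1.08, SE 0.06). For SRXN1 and TXNRD1 the SS and control libraries were close to each other and SS+NAC was more than 2-fold above both. All their counts were whole, so no division of reads with other genes shows in them, though shared reads were not measured. OSGIN1, a gene induced by oxidative stress, had 11.7 and 13.1 CPM in control, 20.8 and 22.0 in SS, and 50.4 and 42.7 in SS+NAC (1.29, SE 0.09).

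Glutathione synthesis and recycling genes of the list rose by less. GCLM, the modifier subunit of glutamate-cysteine ligase, had 49.5 and 52.8 CPM in control, 46.5 and 47.0 in SS, and 89.6 and 103 in SS+NAC (log2 fold change 0.76, SE 0.08). GCLC, its catalytic subunit, had 40.4 and 38.5 CPM in SS and 58.1 and 78.3 in SS+NAC (0.68, SE 0.12), a call that was lost without SS replicate 2 (adjusted p = 0.0768). GSR, glutathione reductase, had 62.0 and 61.2 CPM in SS and 96.5 and 101 in SS+NAC (0.61, SE 0.07). HMOX1, heme oxygenase 1, had 17.4 and 15.7 CPM in control, 22.8 and 21.8 in SS, and 29.1 and 30.7 in SS+NAC (0.68, SE 0.09). Not every NRF2 target moved. NQO1, the quinone reductase gene often used as a reporter of NRF2, had 251 and 261 CPM in control, 362 and 375 in SS, and 353 and 374 in SS+NAC, so the latter groups overlapped (adjusted p = 0.889). The ferritin genes FTL (0.33) and FTH1 (0.42) were called with the length offset only. Without it their log2 fold changes were -0.16 and 0.05, and their calls were lost without SS replicate 2 (adjusted p = 0.0816 for FTL and 0.123 for FTH1), and for FTL also without SS replicate 1 (0.0575). The whole list of 29 held 11 members called higher and 6 lower without the offset, against 23.1% and 19.6% of all genes.

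Promoters of the list were searched because 14 of its 29 tested members were called higher. The RefSeq promoters of 20 list members, called or not (GRCh38.p14, 250 bases before to 50 after the annotated start), were used. Both strands were searched for TGACNNNGC, the core of the antioxidant response element. The letters were found in 30.0% of the 20, in 40.0% of the 10 called higher, in 14.7% of the promoters of all genes tested and in 13.3% of all RefSeq promoters. A match is a description of these letters and not a bound site. The searched promoters of OSGIN1 and SRXN1, which were also called in every fit, did not hold the letters. The promoters of TXNRD1 (chr12:104215529-104215828, plus strand) and GCLM (chr1:93909381-93909680, minus strand) are shown because both genes were called in every fit and both hold the letters, which are in capitals. In TXNRD1 they start 99 bases before the annotated start and, on the other strand, 8 bases before it, and in GCLM 34 bases before it on the other strand.
TXNRD1: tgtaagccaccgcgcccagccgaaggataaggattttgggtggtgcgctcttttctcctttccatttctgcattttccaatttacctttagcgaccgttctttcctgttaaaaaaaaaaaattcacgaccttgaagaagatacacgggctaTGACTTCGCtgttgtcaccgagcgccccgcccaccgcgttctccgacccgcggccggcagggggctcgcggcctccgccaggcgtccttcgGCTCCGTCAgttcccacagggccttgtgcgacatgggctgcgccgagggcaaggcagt
GCLM: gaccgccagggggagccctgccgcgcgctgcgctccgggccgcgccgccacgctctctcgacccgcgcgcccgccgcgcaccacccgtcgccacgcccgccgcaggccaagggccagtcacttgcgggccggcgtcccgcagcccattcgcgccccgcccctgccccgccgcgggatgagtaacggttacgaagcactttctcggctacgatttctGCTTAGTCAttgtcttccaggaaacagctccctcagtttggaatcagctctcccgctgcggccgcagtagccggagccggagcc

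The wider list of the thiol systems was mixed and was not made of other genes. Its 7 members called in every fit were SLC7A11, GCLM, GSR, SRXN1, CTH, CHAC1 and SESN2. These 7 and GCLC are also in the NRF2 list or the ATF4 and CHOP list, so their rises are counted here again. Among 33 genes of the glutathione and thioredoxin systems 9 rose and 2 fell (33.3%, against 14.4% of all genes), with a median of -0.01, and without the offset 9 were called higher and 18 lower, against 23.1% and 19.6% of all genes. The peroxiredoxin and superoxide dismutase genes of the list were not called higher. TXNIP, the inhibitor of thioredoxin, had 21.2 and 21.4 CPM in control, 30.0 and 28.4 in SS, and 17.7 and 23.7 in SS+NAC (log2 fold change -0.52, SE 0.12), and PRDX6 had 343 and 362 in SS and 237 and 249 in SS+NAC (-0.29, SE 0.06). Both were lost without SS replicate 1 (adjusted p = 0.102 for TXNIP and 0.0773 for PRDX6) or 2 (0.107 and 0.126). Of 19 selenoprotein genes 2 rose and 3 fell (26.3%), with a median of 0.05. Besides TXNRD1 these were SELENOI (0.36), TXNRD2 (-0.41), SELENOT (-0.32) and SEPHS2. The calls of SELENOI and SELENOT were lost without SS replicate 1 (adjusted p = 0.0597 and 0.0814) or 2 (0.096 and 0.116), that of TXNRD2 without SS replicate 2 (0.229) or SS+NAC replicate 2 (0.0547), and that of SEPHS2 whenever 1 of the SS or control libraries was left out. GPX1 had 427 and 530.0 CPM in SS and 356 and 307 in SS+NAC (adjusted p = 0.296), and GPX4 had 286 and 306 in SS and 226 and 224 in SS+NAC (adjusted p = 0.504). These genes are short, and without the offset 11 of the 19 selenoprotein genes were called lower, against 19.6% of all genes.

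Metallothioneins bind zinc and copper and are induced when zinc is released from thiols. Of 14 genes of metallothioneins and zinc transport 3 were called higher and none lower (21.4%, against 14.4% of all genes), and 4 and 4 without the offset. MT1X had 33.0 and 33.5 CPM in SS and 34.9 and 35.9 in SS+NAC, and its log2 fold change was 0.80 (SE 0.10) with the offset, that is, relative to genes of similar length, most of which had fewer CPM in SS+NAC, and 0.09 without it. MT1F was alike, with 0.84 and 0.15, and lost its call without SS replicate 2 (adjusted p = 0.0517). The abundant MT2A had 1311 and 1276 CPM in control, 1795 and 2081 in SS, and 1173 and 1016 in SS+NAC, and was called without the offset (adjusted p = 0.00033) but not with it (0.146). Iron genes gave 5 rises and 2 falls among 25 (28.0%, against 14.4% of all genes), and 7 and 7 without the offset. The rises include HMOX1, FTL and FTH1, which are also in the NRF2 list. The transferrin receptor gene TFRC had 125 and 114 CPM in SS and 192 and 204 in SS+NAC (0.45, SE 0.07), a call lost without SS replicate 2 (adjusted p = 0.0523).

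Of 40 targets of ATF4 and CHOP, 24 rose and none fell with the length offset, and 22 were called higher and 2 lower without it. The count was 12 without SS replicate 1 and 10 without SS replicate 2. Called in every fit were CTH, DDIT4, CHAC1, SESN2, ADM2, VLDLR, TRIB3, ALDH1L2, MTHFD2 and STC2. TRIB3, a pseudokinase that inhibits AKT and feeds back on ATF4, had 99.3 and 96.2 CPM in control, 100.3 and 111 in SS, and 199 and 174 in SS+NAC (log2 fold change 0.95, SE 0.08). VLDLR, a lipoprotein receptor, had 6.78 and 6.42 CPM in control, 5.01 and 4.52 in SS, and 11.6 and 12 in SS+NAC (1.08, SE 0.12). The mitochondrial folate enzymes ALDH1L2 and MTHFD2 rose by 0.70 (SE 0.08) and 0.52 (SE 0.08) on the log2 scale. ALDH1L2 had 36.3 and 38.5 CPM in control, 23.5 and 25.0 in SS, and 52.8 and 53 in SS+NAC, and MTHFD2 had 142 and 139.7 in SS and 174 and 197 in SS+NAC. STC2, the secreted stanniocalcin 2, had 329 and 308 CPM in SS and 535 and 554 in SS+NAC (0.46, SE 0.06).

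The transcripts of the factors themselves had other patterns. ATF4 had 577 and 608 CPM in control, 800.5 and 812 in SS, and 728 and 709.7 in SS+NAC (adjusted p = 0.168). ATF3 had 7.34 and 6.56 CPM in control, 19.7 and 15.6 in SS, and 18.6 and 23.8 in SS+NAC, with overlapping treated groups (adjusted p = 0.122). DDIT3, which encodes CHOP, had 9.73 and 10.5 CPM in control, 20.3 and 20.2 in SS, and 19.7 and 24.1 in SS+NAC. Its log2 fold change of 0.55 (SE 0.12) was 0.11 without the offset and was lost without SS replicate 1 (adjusted p = 0.0549) or 2 (0.147). The asparagine synthetase gene ASNS (0.37, SE 0.07) had 108 CPM in both SS libraries and 119 and 129 in SS+NAC, and its call was lost without the offset (adjusted p = 0.0518) and without SS replicate 1 (0.0517) or 2 (0.117). The low-count members NUPR1 (1.51) and GDF15 (1.15), stress-induced genes with at most 3.57 CPM, lost their calls without SS replicate 1 or 2, with adjusted p between 0.0722 and 0.166, and GDF15 also without SS+NAC replicate 2 (0.12). The 7 aminoacyl-tRNA synthetase genes of the list were not called.

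The promoters of 34 members of the ATF4 and CHOP list were searched in the same way for TGATGCAA, an 8-base form of the C/EBP-ATF element. It was found in 14.7% of the 34 and in 5.0% of the 20 called higher, compared with 0.542% of all genes tested. The antioxidant response core TGACNNNGC was in 26.5% of the same 34 and in 35.0% of the 20, close to its shares in the NRF2 list. CHAC1 was the only called member with TGATGCAA, and its promoter (chr15:40953221-40953520, plus strand) is shown with these letters in capitals, 209 bases before the annotated start on the other strand.
CHAC1: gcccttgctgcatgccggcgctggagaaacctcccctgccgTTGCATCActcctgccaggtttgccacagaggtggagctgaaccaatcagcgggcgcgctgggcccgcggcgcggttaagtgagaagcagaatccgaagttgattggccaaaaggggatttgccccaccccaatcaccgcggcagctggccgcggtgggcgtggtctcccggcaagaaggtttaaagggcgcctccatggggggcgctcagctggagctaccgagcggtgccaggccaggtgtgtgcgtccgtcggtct

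**Figure D5:**
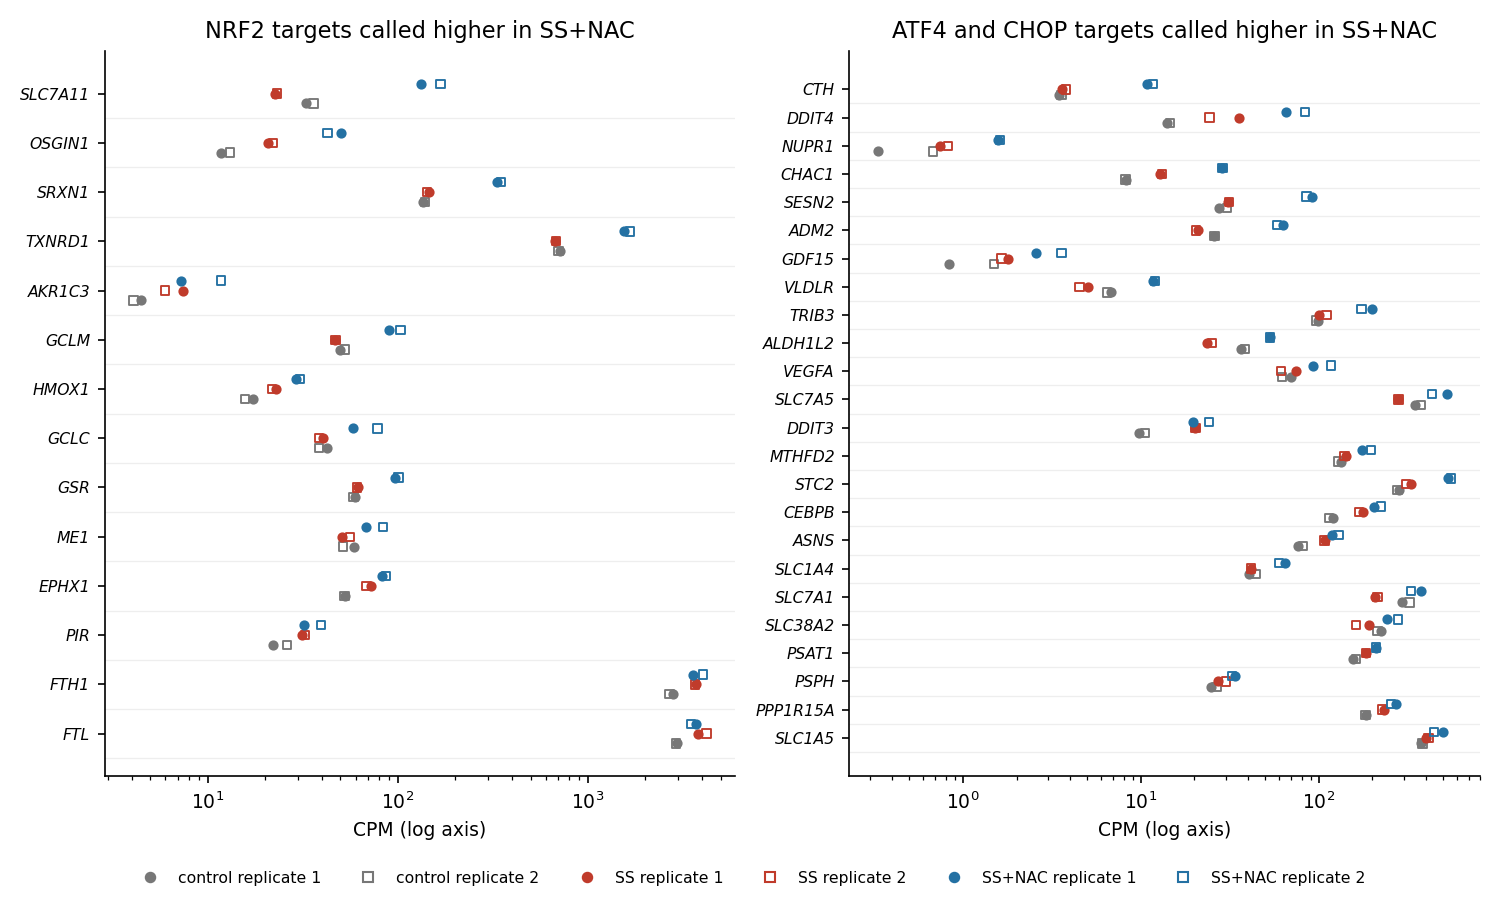
CPM without an offset (horizontal axis, log scale) of the 14 NRF2 targets (left) and the 24 ATF4 and CHOP targets (right) called higher in SS+NAC with the length offset, 1 point per library, with circles for replicate 1 and squares for replicate 2. The control and SS points of SRXN1, TXNRD1 and GCLM are close to each other and the SS+NAC points lie above them, while the SS and SS+NAC points of FTL and FTH1 are not separated in this direction.

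Genes of the endoplasmic reticulum unfolded protein response gave 5 rises and no falls among 26 members (19.2%, against 14.4% of all genes), with a median log2 fold change of 0.10. Without the offset 13 were called higher and 5 lower, and with the length and GC offset 8 and 1. XBP1, a transcription factor of this response, had 158 and 152 CPM in control, 189.9 and 179.8 in SS, and 257 and 263 in SS+NAC (log2 fold change 0.69, SE 0.07) and was called in every fit. HSP90B1, the chaperone GRP94, had 879 and 805 CPM in control, 618 and 599.6 in SS, and 784 and 897 in SS+NAC (0.45, SE 0.08), a call lost without SS replicate 2 (adjusted p = 0.0795). HSPA5, the chaperone BiP, had 868 and 857 CPM in SS and 972 and 967 in SS+NAC (adjusted p = 0.947). The heat shock list gave 3 rises and 4 falls among 26 (26.9%), 1 and 4 with the length and GC offset, and 3 and 11 without an offset. DNAJB4, an HSP40 cochaperone, had 12 and 12.1 CPM in SS and 19.4 and 27.0 in SS+NAC (0.90, SE 0.15), and FKBP4, an HSP90 cochaperone, had 214 and 227 in SS and 172 and 156 in SS+NAC (-0.55, SE 0.07). Both were called in every fit.

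Of 27 immediate early genes 6 rose and 4 fell, so that 37.0% were called against 14.4% of all genes, with a median log2 fold change of 0.05. Fewer members were called in each direction when either SS library was left out, as was so for all genes. Of 13 EGF family ligands and receptors 3 rose and 1 fell (30.8%). Besides EGR1, IER2 had 66.1 and 68.2 CPM in SS and 95.0 and 86.8 in SS+NAC (log2 fold change 0.59, SE 0.07), and CYR61, a matricellular gene and YAP target, had 978 and 1028 in SS and 1227 and 1257 in SS+NAC (0.40, SE 0.06). Both were called in every fit and stood above control, which was close to SS. FOS rose with the offset (0.60, SE 0.16), a call lost without SS replicate 1 (adjusted p = 0.0537), SS replicate 2 (0.224) or SS+NAC replicate 2 (0.0904). JUN had 227 and 206 CPM in SS and 243 and 232 in SS+NAC (adjusted p = 0.702). The EGF receptor gene EGFR had 120.5 and 129.6 CPM in control, 58.1 and 51.3 in SS, and 109.7 and 108 in SS+NAC (0.63, SE 0.08, called in every fit), so both SS libraries lay below the other 4. Its ligand gene EREG had 5.89 and 5.25 CPM in control, 6.41 and 5.07 in SS, and 12.1 and 20.3 in SS+NAC (1.25, SE 0.22), a call lost without SS replicate 2 (adjusted p = 0.0777). HBEGF, another ligand gene, had 54.6 and 50.1 CPM in SS and 38.9 and 34.2 in SS+NAC (-0.44, SE 0.09), a call lost without SS replicate 1 (adjusted p = 0.0801).

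Of 23 chemokine and cytokine genes, 5 rose and none fell (21.7%, against 7.38% of all genes called higher), and none was called in every fit. The median log2 fold change was 0.46 with all libraries. It was 0.67 without SS replicate 1, 0.33 without SS replicate 2, 0.82 without SS+NAC replicate 1 and 0.02 without SS+NAC replicate 2. The count was 0 without SS replicate 2, 2 without SS+NAC replicate 2 and 16 without SS+NAC replicate 1. CXCL2 had 13.8 and 11.1 CPM in control, 45.5 and 22.9 in SS, and 55.7 and 94.9 in SS+NAC (1.5, SE 0.31). CXCL3 (1.28), IL1A (1.06) and CXCL5 (0.83) had the same order of replicates, and their calls were lost with DESeq2 (adjusted p = 0.145, 0.0588 and 0.126). In all of these SS replicate 1 was above SS replicate 2 and SS+NAC replicate 2 above SS+NAC replicate 1, so the spread within groups was large. CXCL8, interleukin 8, had 19.3 and 11.8 CPM in control, 72.3 and 33.1 in SS, and 65.6 and 197 in SS+NAC, and IL6 had 14.4 and 5.12 in SS and 7.45 and 22.5 in SS+NAC, with overlapping groups in both (adjusted p = 0.0502 and 0.225). Of the 20 NF-kappaB feedback targets 1 was called.

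Of 38 G1/S genes 9 fell and none rose, with a median log2 fold change of -0.20 and 4 members above 0, and 15 were called lower and 3 higher without the offset. The median was -0.22 without SS replicate 1, -0.14 without SS replicate 2, -0.28 without SS+NAC replicate 1 and -0.11 without SS+NAC replicate 2. The replication genes CLSPN (-0.48), FEN1 (-0.38) and MCM7 (-0.35) were among the 9 that fell. All 3 lost their calls without SS replicate 2 (adjusted p = 0.141, 0.159 and 0.256), FEN1 and MCM7 also without SS replicate 1 (0.0617 and 0.0676), MCM7 also without SS+NAC replicate 2 (0.10) or either control library (0.0546 and 0.0547), and CLSPN had -0.14 without the offset (0.255). MCM7 had 432 and 462 CPM in control, 522 and 585 in SS, and 459 and 377 in SS+NAC, and FEN1 had 249 and 269.9 in SS and 204 and 168 in SS+NAC. None of the 9 was called in every fit. Of the list, 1 gene was called lower without SS replicate 1, 0 without SS replicate 2, 23 without SS+NAC replicate 1, and 5 without SS+NAC replicate 2 or without either control library. Of 38 G2/M genes 3 rose and 2 fell, 13.2% of the list against 14.4% of all genes, with a median of -0.02, and the counts were 2 and 5 with the length and GC offset and 11 and 13 without an offset. CENPE, a kinetochore kinesin with a long AT-rich transcript, had 56.4 and 47.5 CPM in control, 13.6 and 16.4 in SS, and 36.2 and 40.3 in SS+NAC (0.88, SE 0.12, and 0.62 with the length and GC offset). ASPM, a spindle pole gene, had 35.2 and 41.2 CPM in SS and 81.5 and 90.9 in SS+NAC (0.64, SE 0.10, and 0.42 with the length and GC offset). MKI67, the proliferation marker, had 262 and 290.4 CPM in SS and 441 and 360.3 in SS+NAC, and was called without the offset (adjusted p = 0.0022) but not with it (0.961). CDKN1A, the p21 inhibitor of cyclin-dependent kinases and a p53 target, had 14.2 and 14.5 CPM in control, 31.7 and 24.8 in SS, and 17.2 and 18 in SS+NAC (-0.55, SE 0.12), a call lost without SS replicate 1 (adjusted p = 0.0982).

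Of 29 p53 targets 3 rose and 3 fell (20.7%, against 14.4% of all genes), and 5 and 8 were called without the offset, against 23.1% and 19.6% of all genes. GADD45A had 57.4 and 62.4 CPM in SS and 66.1 and 71.2 in SS+NAC (log2 fold change 0.52, SE 0.07, and 0.20 without the offset, adjusted p = 0.0637). Of 37 apoptosis regulators 5 fell and none rose (13.5%, against 7.04% of all genes called lower), with a median of 0.04, and the counts were 6 lower and 2 higher with the length and GC offset and 11 and 6 without an offset. Without SS+NAC replicate 1 members were called in both directions, and fewer were called lower when any other library was left out. CYCS, cytochrome c, had 258 and 225 CPM in control, 263 and 291 in SS, and 217 and 223 in SS+NAC (-0.66, SE 0.08, called in every fit), and BID had 178 and 192 in SS and 129.8 and 129.7 in SS+NAC (-0.39, SE 0.06), a call lost without SS replicate 2 (adjusted p = 0.0707). BCL2 had 10.2 and 10.5 CPM in control, 6.06 and 5.30 in SS, and 9.07 and 8.14 in SS+NAC. It was called without the offset (adjusted p = 0.0054) but not with it (0.0752).

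The respiratory chain shows what the length offset does. Of 37 complex I subunits 34 were called lower and none higher in SS+NAC without the offset, with a median log2 fold change of -0.63, and 3 and none with it, with a median of -0.08. Of all genes 19.6% were called lower without the offset and 7.04% with it, so that the 3 of 37 (8.11%) were close to the share over all genes. Of 40 subunits of complexes II to V all were called lower without the offset, with a median of -0.60, and 11 with it, with a median of -0.14. Most of these genes are short, so their lower CPM in SS+NAC was shared by most genes of similar length. The 3 called in every fit were UQCRB, ATP5MC3 and NDUFA4. ATP5MC3, a subunit of the membrane rotor of ATP synthase, had 197 and 210.5 CPM in control, 266 and 308 in SS, and 187 and 177 in SS+NAC (-0.64, SE 0.08). NDUFA4, a subunit of complex IV, had 119 and 118 CPM in control, 168 and 181 in SS, and 112 and 103 in SS+NAC (-0.55, SE 0.07). UQCRB, a subunit of complex III, had 293 and 321 CPM in SS and 218 and 249 in SS+NAC (-0.67, SE 0.08, and -0.40 without the offset). Its effective length in the table was 4897 bases, compared with a median of 820 for the list, so its offset was that of long genes. For all 3, SS lay above the other groups. Without SS replicate 2 the calls of complexes II to V were these 3 in number, and without SS replicate 1 there were 6.

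The cytosolic ribosome gave a large contrast between the fits, with all 79 protein genes called lower without the offset (median log2 fold change -0.57) and 8 (10.1%) with it (median -0.01), against 19.6% and 7.04% of all genes. RPL27A had 1779 and 1779.5 CPM in control, 2495 and 2662 in SS, and 1729.7 and 1724 in SS+NAC (-0.85, SE 0.07), and RPL13 had 1548 and 1749 in SS and 1161 and 1056 in SS+NAC (-0.81, SE 0.08). Both were called in every fit. Their effective lengths in the table were 4940 and 4565 bases, compared with a median of 682 for the ribosomal genes, and without the offset their log2 fold changes were -0.58 and -0.57, close to the median of the list. Of 36 proteasome genes 29 were called lower without the offset and 4 with it (11.1%, against 7.04% of all genes). PSMA5 had 93.2 and 100.1 CPM in control, 129 and 128 in SS, and 91.4 and 95.0 in SS+NAC (-0.62, SE 0.07), and PSMB2 had 328 and 372 in SS and 281 and 243 in SS+NAC (-0.67, SE 0.10), both called in every fit. PSMB2 had an effective length of 4762 bases in the table, compared with a median of 1496 for the list, and a log2 fold change of -0.42 without the offset.

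Of 23 glycolytic genes 8 were called lower and none higher, none of them in every fit, with a median log2 fold change of -0.24, and 13 lower and 2 higher with a median of -0.27 without the offset. GPI, the isomerase of the second step, had 342 and 367 CPM in control, 436 and 464 in SS, and 392 and 353 in SS+NAC (-0.48, SE 0.08). LDHA, lactate dehydrogenase A, had 1898 and 2143 CPM in SS and 1562 and 1372 in SS+NAC (-0.35, SE 0.08). The glucose carrier gene SLC2A3 had 35.4 and 28.4 CPM in SS and 24.5 and 27.5 in SS+NAC (-0.47, SE 0.10). The calls of GPI (adjusted p = 0.0751) and LDHA (0.172) were lost without SS replicate 2 and that of SLC2A3 without SS replicate 1 (0.121) and without the offset (0.0531), and 1 glycolytic gene was called without SS replicate 2, 3 without SS replicate 1, 15 without SS+NAC replicate 1, and 5 when any other library was left out.

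In the mTOR pathway 4 of 36 genes rose and 2 fell (16.7% called, against 14.4% of all genes), and the counts were 3 and 6 with the length and GC offset and 11 and 10 without an offset. Fewer were called in each direction without either SS library, and more without SS+NAC replicate 1. The core kinase gene MTOR had 65.0 and 67.3 CPM in SS and 87.0 and 75.2 in SS+NAC (adjusted p = 0.206 with the offset), and AKT1 had 283 and 319.6 in SS and 299 and 268 in SS+NAC (adjusted p = 0.461). CASTOR2, which restrains mTORC1, had 13.6 and 12.8 CPM in control, 18.8 and 17.9 in SS, and 13.6 and 13.0 in SS+NAC (log2 fold change -0.68, SE 0.09, called in every fit). PIK3R1, a regulatory subunit of PI3-kinase, rose (0.50, SE 0.08), and its call was lost without SS replicate 2 (adjusted p = 0.0641). The mTORC1 inhibitors DDIT4 and SESN2, which are ATF4 targets, are described above. In the eIF4E and 4E-BP family 1 of 14 genes was called higher and 2 lower. EIF4E, the cap-binding factor, had 75.8 and 74.4 CPM in control, 70.2 and 70.1 in SS, and 66.1 and 71.0 in SS+NAC, and its log2 fold change was -0.57 with the offset and -0.03 without it (adjusted p = 0.737). EIF4EBP3, a 4E-BP gene, had 0.39 and 0.23 CPM in control, 1.35 and 3.84 in SS, and 0.0 and 0.21 in SS+NAC, and was called lower, though not in every fit. In the autophagy list 2 of 34 genes rose and 3 fell (14.7%), and 7 and 8 were called without the offset. SQSTM1, the receptor p62, had 431 and 449 CPM in control, 588 and 584 in SS, and 785 and 816 in SS+NAC (0.49, SE 0.06, called in every fit), and WIPI2 had 76.4 and 87.8 in SS and 66.5 and 62.3 in SS+NAC (-0.58, SE 0.09, called in every fit).

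Of 29 genes of homologous recombination and the Fanconi anemia pathway 6 rose and 1 fell (24.1%, against 14.4% of all genes), and 15 and 4 were called without the offset. The median log2 fold change was 0.16, and 0.07 with the length and GC offset. FANCM, a DNA translocase, had 9.62 and 8.10 CPM in control, 3.18 and 3.79 in SS, and 8.53 and 9.14 in SS+NAC (log2 fold change 1.02, SE 0.16). XRCC2, a homologous recombination gene, had 21.8 and 20.9 CPM in control, 14.2 and 14.5 in SS, and 21 and 22 in SS+NAC (0.53, SE 0.09). Both were called in every fit, and in each SS lay below the other groups, which overlapped. BRCA2, a long AT-rich transcript, had 19.8 and 16.3 CPM in control, 10.3 and 9.59 in SS, and 20.2 and 22.6 in SS+NAC (0.56, SE 0.12, and 0.37 with the length and GC offset), a call lost without SS replicate 1 (adjusted p = 0.0636) or 2 (0.115). Among 20 replication-dependent histone genes 2 rose and 5 fell (35.0%), and 1 and 12 were called without the offset. HIST2H2BE had 3.50 and 4.03 CPM in control, 6.10 and 5.71 in SS, and 11.1 and 11.2 in SS+NAC (1.02, SE 0.13, called in every fit). The linker histone genes HIST1H1E and HIST1H1D had low counts in every library. HIST1H1E had 1.74 CPM in both SS libraries and at most 0.317 in the other 4, and HIST1H1D had 1.0 and 1.37 in SS and at most 0.124 in the other 4. Transcripts of replication-dependent histone genes mostly lack poly(A) tails, and the libraries were made from polyadenylated RNA.

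Of 35 collagen, laminin and integrin genes 4 rose and 1 fell with the offset (14.3%, against 14.4% of all genes), and 22 were called higher without it, against 23.1% of all genes. ITGA1, a collagen receptor subunit, had 11.6 and 11.4 CPM in control, 6.45 and 4.89 in SS, and 12.1 and 14.5 in SS+NAC (log2 fold change 0.96, SE 0.14, called in every fit), and ITGAV had 53.9 and 45.7 in SS and 89.1 and 117 in SS+NAC (0.63, SE 0.12), a call lost without SS replicate 2 (adjusted p = 0.116). Of 16 genes of the epithelial and mesenchymal list 1 rose and 4 fell (31.2%), none of them called in every fit. The transcription factor gene ZEB1 of the mesenchymal program had 65.8 and 57.9 CPM in control, 30.8 and 33.2 in SS, and 53.7 and 66.4 in SS+NAC (0.55, SE 0.11), a call lost without SS replicate 1 (adjusted p = 0.0716). The keratin genes KRT8 (-0.44) and KRT18 (-0.41) and VIM (-0.30) were called lower, and the calls of all 3 were lost without SS replicate 2 (adjusted p between 0.203 and 0.209), those of KRT18 (0.0561) and VIM (0.0639) also without SS+NAC replicate 2, and that of VIM also without SS replicate 1 (0.0635). PAX8 had 278 and 274 CPM in SS and 262 and 253 in SS+NAC (-0.29, SE 0.06), and -0.10 without the offset (adjusted p = 0.285). Its call was also lost without SS replicate 1 (adjusted p = 0.0869) or 2 (0.132). Of 9 markers of fibroblasts, endothelium and blood cells, 1, CD68, was called higher.

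The shares of promoters with the searched letters were also computed over all called genes, beside those of all 11264 tested genes with a RefSeq promoter. The antioxidant response core TGACNNNGC was in 14.4% of the 827 promoters of genes called higher, in 13.8% of the 818 of genes called lower and in 14.7% of all. The cAMP response element TGACGTCA was in 3.14%, 3.55% and 3.08%, the heat shock letters TTCNNGAA in 6.05%, 4.4% and 5.93%, the E2F letters TTTGGCGC in 1.57%, 1.1% and 1.12%, and the NF-kappaB letters GGGANTTCC in 2.3%, 1.59% and 2.31%. The metal response core TGCGCNC was in 27.0% of the promoters of genes called higher, in 35.3% of those called lower and in 30.5% of all. TGATGCAA was in 0.363%, 0.244% and 0.542%.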

How the data were processed

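Polyadenylated RNA of KHM-5M cells was captured with oligo(dT) beads, and the libraries were read from 1 end on a BGI sequencer. The authors removed low-quality reads with SOAPnuke, and their processing notes name HISAT2 2.0.4, Bowtie2 2.2.5 and RSEM 1.2.12. The deposited table holds, for 17687 genes, the expected counts that RSEM estimated for each library, and 44.8% of these values were not whole (further than 0.005 from a whole number, here and for single genes), since RSEM divides reads that match several genes. The FPKM values in the deposited table, which the authors computed with RSEM, were used only to recover effective length. The deposited TPM values, also made by the authors with RSEM, were used for levels of marker genes. Columns of the authors' group means and of their own comparisons were not used. How the reads of genes on opposite strands were counted is not given in the sources used here.

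Expected counts were rounded, filtered with filterByExpr, scaled with TMM and fitted over all 6 libraries with edgeR 4.0.16 in R 4.3.3 (quasi-likelihood test, contrast SS+NAC minus SS, Benjamini-Hochberg adjustment over 14005 genes, called at 0.05). The length offset of each library came from smoothing, by lowess with a span of 0.3, each gene's log2 CPM (prior count 2) minus its mean over libraries against log effective length. CPM values are scaled by TMM and carry no offset. The common biological coefficient of variation was 6.32% with the offset. Standard errors are those of the fit. On simulated data with the length trend, the fit with the offset called 194 of 13884 genes, 9 of them falsely. It recovered 80.6% of genes changed 1.5-fold and 97% of those changed 2-fold. Without the offset 4594 were called, of which 4414 were false. The simulated trend was the one fitted to these data by the same method, so the success of the offset was built in. Neither a trend with GC content nor a deviating library was simulated, so the false count does not carry over to the calls given here.

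Genes named for size were the 15 largest rises and 15 largest falls among called genes with at least 10 CPM in SS or SS+NAC, groups that did not overlap, and the same sign without the offset. Other genes were members of the 39 lists. Of 1065 list members 1055 were found in the table. The members and lists were chosen with earlier results of these data known. The study's methods call the 2 replicates of a group biological, but whether they came from separate cultures is not given in the labels, and p-values measure the spread between these libraries. Alternatives were other offsets, scalings, filters and tests (DESeq2 1.42.0), a replicate block, thinning and leaving out each library. Gene positions are from GENCODE release 29 (GRCh38), and promoters and their coordinates from RefSeq (GRCh38.p14). Figures were drawn with matplotlib 3.10.9.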

Additional observations from a re-analysis of the deposited data

How the results depend on the processing

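Of 2019 genes called with the length offset, 1033 higher and 986 lower in SS+NAC, the counts without it were 5985, 3240 and 2745, and with Bonferroni adjustment 56, 37 and 19. With the replicate block they were 1366, 768 and 598, and PAX8 (adjusted p = 0.051), VIM (0.0593) and MCM7 (0.0602) were not called. Whether equal replicate numbers mark pairs is not given in the labels. The correlation of the deviations of equally numbered libraries was 0.106 between control and SS, -0.105 between control and SS+NAC and -0.165 between SS and SS+NAC. With 2 libraries a group these values cannot settle whether libraries were paired. When each library was left out in turn, the total ranged from 343 (without SS replicate 2) to 3811 (without SS+NAC replicate 1), the genes higher from 192 to 1797 and the genes lower from 151 to 2014. The counts of genes lower were 627 and 619 without control replicate 1 and 2. The cause of these shifts was not tested. With a lowess span of 0.15 or 0.6, DESeq2 size factors, other filters on low counts, the 4 libraries alone, thinned counts, DESeq2 or the length and GC offset, every count was within 1.5 times that above, and the total lay between 1481 and 2484. Of 119 genes given with a fold change, 75 were called in every setting besides Bonferroni, and 37 were not called without SS replicate 2. FTL was the only one to change sign, with -0.159 without the offset. With 2 libraries a group and 17645545 or more counts each, genes of a few CPM gave wide errors, and none of the groups of 2 allowed a test for outlying libraries.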

Other observations

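Genes outside the lists were also called in every fit and are described here after their values had been seen. A few with long transcripts were picked because both SS libraries lay below the other 4. In CPM without the offset this was also the order of the medians in the eighth of longest genes. The median deviation there was -0.27 and -0.33 in SS, 0.13 and 0.16 in SS+NAC and 0.17 and 0.15 in control. The order is thus not particular to the genes picked, and single genes of like length with it were not counted. GOLGA4, a tether of the trans-Golgi, had 78.4 and 63.6 CPM in control, 20.2 and 20.8 in SS, and 52.1 and 67.8 in SS+NAC (log2 fold change 1.10, SE 0.13, and 1.01 with the length and GC offset). CEP290, a protein of the ciliary transition zone, had 28.9 and 22.6 CPM in control, 7.98 and 7.90 in SS, and 21.8 and 27.1 in SS+NAC (1.16, SE 0.14, and 0.87 with the length and GC offset). The centriole duplication gene CEP152 (1.02, SE 0.11, and 0.95 with the length and GC offset), the centrosomal genes CEP350 (0.48, SE 0.07, and 0.36) and NIN (0.49, SE 0.07, and 0.48) and the kinase gene ROCK2 (0.67, SE 0.07, and 0.49) had the same order. Their transcripts are long, and the base composition of the called genes, described above, moved with these values.

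ID1, a relative of ID3, had 49.9 and 55.0 CPM in control, 40.8 and 49.6 in SS, and 20.7 and 19.3 in SS+NAC (log2 fold change -0.74, SE 0.09), so that both inhibitors were lowest with NAC. CITED2, a relative of CITED4, had 108 and 113 CPM in control, 135 and 154 in SS, and 88.8 and 85.7 in SS+NAC (-0.55, SE 0.07). The secreted factor genes STC1 (-1.10, SE 0.14), FGF5 (-0.80, SE 0.09) and PLAU (-0.46, SE 0.07), which encode stanniocalcin 1, a fibroblast growth factor and urokinase, were also lowest in SS+NAC. STC1 had 9.06 and 8.55 CPM in control, 9.54 and 8.08 in SS, and 4.89 and 4.32 in SS+NAC. TSC22D3, the glucocorticoid-induced leucine zipper gene, had 10.2 and 10.1 CPM in control, 13.3 and 10.9 in SS, and 23.1 and 26.1 in SS+NAC (1.20, SE 0.12). The glycine carrier gene SLC6A9 (0.88, SE 0.11) and PCK2, the mitochondrial phosphoenolpyruvate carboxykinase gene (0.50, SE 0.08), rose as well.

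MTRNR2L1, a nuclear gene with a sequence close to that of the mitochondrial 16S ribosomal RNA, was lower in SS than in control and lower still in SS+NAC. It had 714 and 703 CPM in control, 181 and 191 in SS, and 109.8 and 93.0 in SS+NAC (log2 fold change -0.60, SE 0.08). Reads of mitochondrial RNA can match this gene, and their part in the value was not tested.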
